A study of Homo sapiens with 20 samples.

Results

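The 10 genes described here encode transcription factors that set and hold the identity of B cells: PAX5, EBF1, TCF3, POU2F2, POU2AF1, BACH2, IKZF1, IKZF3, IRF8 and FOXP1. They were taken by gene symbol from count tables of 58288 genes, and all 10 were found. Of 16478 genes with enough counts to be tested, all 10 were members, so none was lost to the filter on low counts. The genes were chosen by name, with no threshold on measured values but with earlier results of these data known.

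B lymphocytes are specified by a short chain of factors in which TCF3 (E2A) and EBF1 open the early B cell programme and PAX5 then fixes it by activating B cell genes and repressing those of other lineages. POU2F2 (OCT2) and its coactivator POU2AF1 (OCA-B) act at octamer sites of immunoglobulin and other B cell genes, while the zinc finger factors IKZF1 (Ikaros) and IKZF3 (Aiolos) regulate lymphoid differentiation. BACH2 and IRF8 are known for holding back differentiation into plasma cells, and FOXP1 is required for early B cell development and is often studied in large B cell lymphoma.

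Polyadenylated RNA was sequenced from DOHH2 and U2932, 2 human cell lines labelled as diffuse large B cell lymphoma, after 8 h or 18 h with an agent labelled TK or with DMSO, the solvent control. The labels used here give neither the meaning of TK nor a dose, and they name no genetic change in any group. In DOHH2 there were 3 DMSO libraries at 8 h, 3 TK libraries at 8 h, 2 DMSO libraries at 18 h and 3 TK libraries at 18 h. In U2932 there were 3 DMSO libraries at 8 h, 2 TK libraries at 8 h, 1 DMSO library at 18 h and 3 TK libraries at 18 h, so the 18 h DMSO group of this line has no spread of its own. Each line is a single model of the disease, and the labels do not say that replicates came from separate cultures, so p-values measure the spread between these libraries, which may be technical.

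The promoters of TCF3, EBF1 and PAX5, the chain of factors described above, are shown. E-boxes, the letters CANNTG, are the class of element that TCF3 recognises. These 3 genes were lower in DOHH2 than in U2932 at 8 h in both treatments, as were all 10 members in the values that follow. Any part of the motifs in that difference was not tested. Each window is the 250 bases upstream of a RefSeq transcription start, written 5′ to 3′ on the gene's strand, and capitals mark every match to the 5 motifs searched. The PAX5 window is chr9:37034269-37034518 on the minus strand, the EBF1 window chr5:159097957-159098206 on the minus strand and the TCF3 window chr19:1652616-1652865 on the minus strand, all in GRCh38.p14. None of the 3 windows overlaps an exon of the 10 members in GENCODE v29, and exons of other genes were not searched. The EBF1 window lies inside the span of the EBF1 gene there, chr5:158695916-159099761.
PAX5 promoter: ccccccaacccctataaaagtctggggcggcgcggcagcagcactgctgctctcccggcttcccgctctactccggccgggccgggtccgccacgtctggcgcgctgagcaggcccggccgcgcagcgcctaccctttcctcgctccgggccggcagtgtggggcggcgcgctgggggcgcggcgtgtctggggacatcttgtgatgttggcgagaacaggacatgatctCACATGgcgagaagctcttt
EBF1 promoter: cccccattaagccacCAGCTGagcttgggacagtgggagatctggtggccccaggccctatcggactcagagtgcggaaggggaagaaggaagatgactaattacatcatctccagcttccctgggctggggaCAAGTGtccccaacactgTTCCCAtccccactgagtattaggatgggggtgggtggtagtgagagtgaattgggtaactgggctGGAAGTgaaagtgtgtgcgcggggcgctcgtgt
TCF3 promoter: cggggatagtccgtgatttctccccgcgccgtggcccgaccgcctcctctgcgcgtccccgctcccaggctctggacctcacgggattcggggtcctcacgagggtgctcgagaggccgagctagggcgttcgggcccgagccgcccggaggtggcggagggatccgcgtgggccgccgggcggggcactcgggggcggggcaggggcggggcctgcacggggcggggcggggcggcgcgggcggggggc
The PAX5 window held 1 E-box, the EBF1 window 2 E-boxes, 1 Ikaros core (TGGGAA, here on the opposite strand) and 1 ETS core (GGAAGT), and the TCF3 window none of the 5 motifs. RefSeq's table held windows for 8 of the 10 members, 16 windows in all, and none for POU2AF1 and IKZF3. Searched on both strands, an E-box was present in 10 of the 16 windows and in 61.8% of 35116 windows of that length in the table. The Ikaros core was present in 5 of the 16 windows, against 20.8% of all windows, and the ETS core in 3 of the 16, against 19.5%. The octamer ATGCAAAT occurred in 0 of the 16 windows and in 1.63% of all windows, and the EBF1 motif, searched as TCCC, any 2 bases and GGGA, in 0 of the 16 and in 1.06%. E-boxes and EBF1 motifs read alike on both strands and were counted by position, no 2 matches in the printed windows overlapped, and a match describes letters only.

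The libraries held 30363255 to 52275430 counts in genes, and counts of single members ran from 156 (FOXP1 in DOHH2) to 28039 (POU2AF1 in U2932). B cell markers were read as a check of cell type, which cannot tell 1 B cell line from another. All 6 on the list, such as CD79A and CD79B, had counts in each of the 8 groups. Their summed levels were 2531 to 5282 CPM (counts divided by library size, TMM-scaled between libraries). The 7 T cell markers summed to 0.656 to 8.25 CPM. The 7 myeloid markers summed to 42.6 to 58.7 CPM in DOHH2, nearly all of it CD33, and to 1.16 to 2.64 CPM in U2932. The 3 stromal markers summed to 10.3 to 34.5 CPM in DOHH2 and 0.596 to 4.48 CPM in U2932, and the part of these markers in the line differences was not tested. BCL6, the master repressor of germinal centre B cells, was at most 0.358 CPM in the 11 libraries labelled DOHH2, a line usually described as of germinal centre type, so the line names are used here as labelled. One library stood apart, replicate 1 of DOHH2 with TK at 18 h: reads without a unique alignment made up 56.6% of its counts and 20.7% to 34.3% of those of the other 19. Results that moved most without that library are given both ways.

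**Figure D1:**
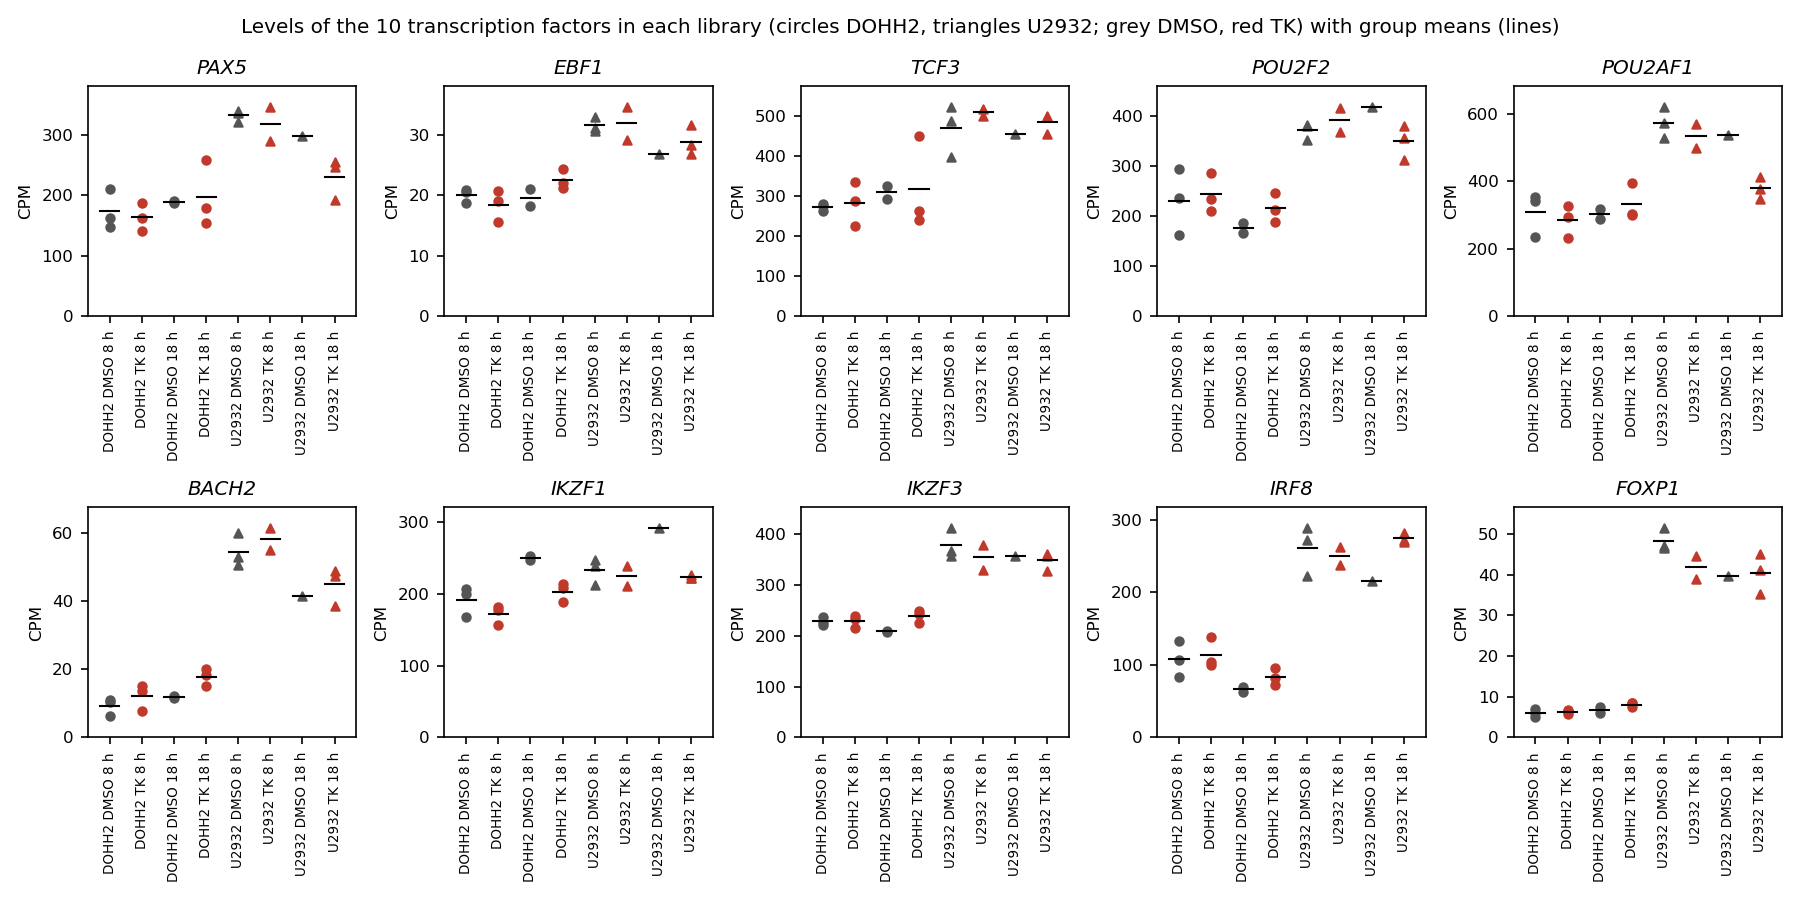
Level of each of the 10 transcription factors in CPM (linear axes from 0) in all 20 libraries, as circles for DOHH2 and triangles for U2932, grey for DMSO and red for TK, with a black line at the mean of each group. BACH2 and FOXP1 show the widest gap between the lines, and IKZF1 the narrowest.

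Between genes, levels were compared only per length, as RPKM (CPM divided by the summed exon length of the gene). The E protein TCF3 had the highest median of the members in DOHH2, 46.1 RPKM, followed by POU2AF1 at 40.8 RPKM. In U2932 the same genes led with medians of 82.2 RPKM for TCF3 and 71.1 RPKM for POU2AF1. In both lines EBF1, BACH2 and FOXP1 were the lowest, with medians of 3.35, 1.25 and 0.185 RPKM in DOHH2 and 4.96, 5.15 and 1.22 RPKM in U2932. The value of FOXP1 is divided by an annotated exon length of 36714 bases, all exons of its transcripts with shared bases counted once. This length lowers its RPKM where short transcripts are used. Their coordinates in GENCODE v29 (GRCh38) place the members on 9 chromosomes. TCF3 lies at chr19:1609290-1652605 and POU2F2 at chr19:42086110-42196585. EBF1 spans chr5:158695916-159099761, PAX5 chr9:36833275-37034185 and BACH2 chr6:89926529-90296908, all on the minus strand. POU2AF1 lies at chr11:111352252-111455630, IKZF3 at chr17:39757715-39864188 and FOXP1 at chr3:70952817-71583993, also on the minus strand, and IKZF1 at chr7:50304068-50405101 and IRF8 at chr16:85898803-85922609 on the plus strand. Antisense genes share exon bases with PAX5, POU2AF1, BACH2, IKZF1 and FOXP1, and a gene on the same strand shares 2539 bases with FOXP1 and was not analysed here. Where such a gene is in the count tables, its count was at most 0.530% of the member's, and the strand setting of the counting is not given in the sources used here.

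The first comparison asks how the factors differ between the lines without TK. In DMSO at 8 h all 10 were lower in DOHH2 than in U2932, in edgeR's quasi-likelihood F test, Benjamini-Hochberg adjusted over all 16478 genes. In that contrast 34.9% of all genes were called lower and 67.8% were called in either direction, so a difference between these lines was common among genes at large. The libraries of the lines did not overlap for any of the 10, as for 37.9% of all genes in that direction and 73.8% in either. The members' median log2 ratio of DOHH2 over U2932 was -0.84, beside -0.03 for all genes tested. FOXP1 and BACH2 were the members furthest apart: 10.2% and 11.9% of tested genes had a ratio at least as low. IKZF1 was the nearest, with 40.7% at least as low.

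In DMSO at 8 h TCF3 was at 275, 281 and 264 CPM in the 3 DOHH2 libraries. The 3 U2932 libraries had 397, 489 and 524 CPM. TCF3 was 1.72-fold lower in DOHH2 (log2 -0.78, SE 0.18, adjusted p = 0.000814 in edgeR's quasi-likelihood F test, Benjamini-Hochberg adjusted), and the libraries of the lines did not overlap. EBF1 was at 18.8, 20.5 and 20.9 CPM in DOHH2 and 31.2, 30.7 and 33.0 CPM in U2932. EBF1, which opens chromatin at B cell genes, was 1.58-fold lower (log2 -0.66, SE 0.13), again with every DOHH2 library under every U2932 library. PAX5 was at 162.0, 209 and 147 CPM in DOHH2 and 336, 338 and 321 CPM in U2932. PAX5 was 1.92-fold lower (log2 -0.94, SE 0.17), with replicate 2 the highest of the DOHH2 libraries and still below all of U2932.

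The octamer pair differed by similar amounts. POU2F2 was at 163, 293 and 236 CPM in DOHH2 and 352, 379 and 382 CPM in U2932, a log2 ratio of -0.69 (SE 0.17). The spread within DOHH2 was wide, replicate 1 being far below replicate 2, but no library reached the U2932 range. Its coactivator POU2AF1 was at 235, 343 and 353 CPM in DOHH2 and 527, 573 and 621 CPM in U2932, a log2 ratio of -0.89 (SE 0.16). Per length, POU2AF1 made up 63.8% of the summed RPKM of the pair in DOHH2 and 62.4% in U2932 (medians over 11 and 9 libraries), with ranges of 57.5% to 68.0% and 54.9% to 66.5%, so the ranges of this share overlapped between the lines.

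BACH2, IRF8 and FOXP1 held the largest differences. BACH2 was at 6.28, 11.0 and 10.4 CPM in DOHH2 and 60.0, 50.4 and 52.8 CPM in U2932, which is 5.86-fold lower (log2 -2.55, SE 0.22). IRF8 was at 83.1, 133 and 107 CPM in DOHH2 and 222, 271 and 288 CPM in U2932, 2.42-fold lower (log2 -1.28, SE 0.16). Neither gene's lines overlapped. FOXP1 was at 5.08, 7.04 and 5.94 CPM in DOHH2 and 51.4, 46.5 and 47.0 CPM in U2932, 7.99-fold lower (95% confidence interval of the log2 ratio -3.31 to -2.69, adjusted p = 2.64e-13 in edgeR's quasi-likelihood F test, Benjamini-Hochberg adjusted). In bulk RNA, fewer cells with a transcript and less of it per cell cannot be told apart.

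The Ikaros factors gave both a moderate and the smallest difference. IKZF3 was at 227, 236 and 221 CPM in DOHH2 and 411, 356 and 366 CPM in U2932, a log2 ratio of -0.73 (SE 0.10). IKZF1 was at 207, 199 and 167 CPM in DOHH2 and 246, 238 and 213 CPM in U2932, a log2 ratio of -0.28 (SE 0.11, adjusted p = 0.0244 in edgeR's quasi-likelihood F test, Benjamini-Hochberg adjusted). The highest DOHH2 library lay just under the lowest U2932 library for IKZF1. That call was lost without DOHH2 DMSO 8 h replicate 3 (log2 -0.20), without U2932 DMSO 8 h replicate 1 (log2 -0.24) or replicate 2 (log2 -0.28), and with no filter on low counts (log2 -0.27).

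**Figure D2:**
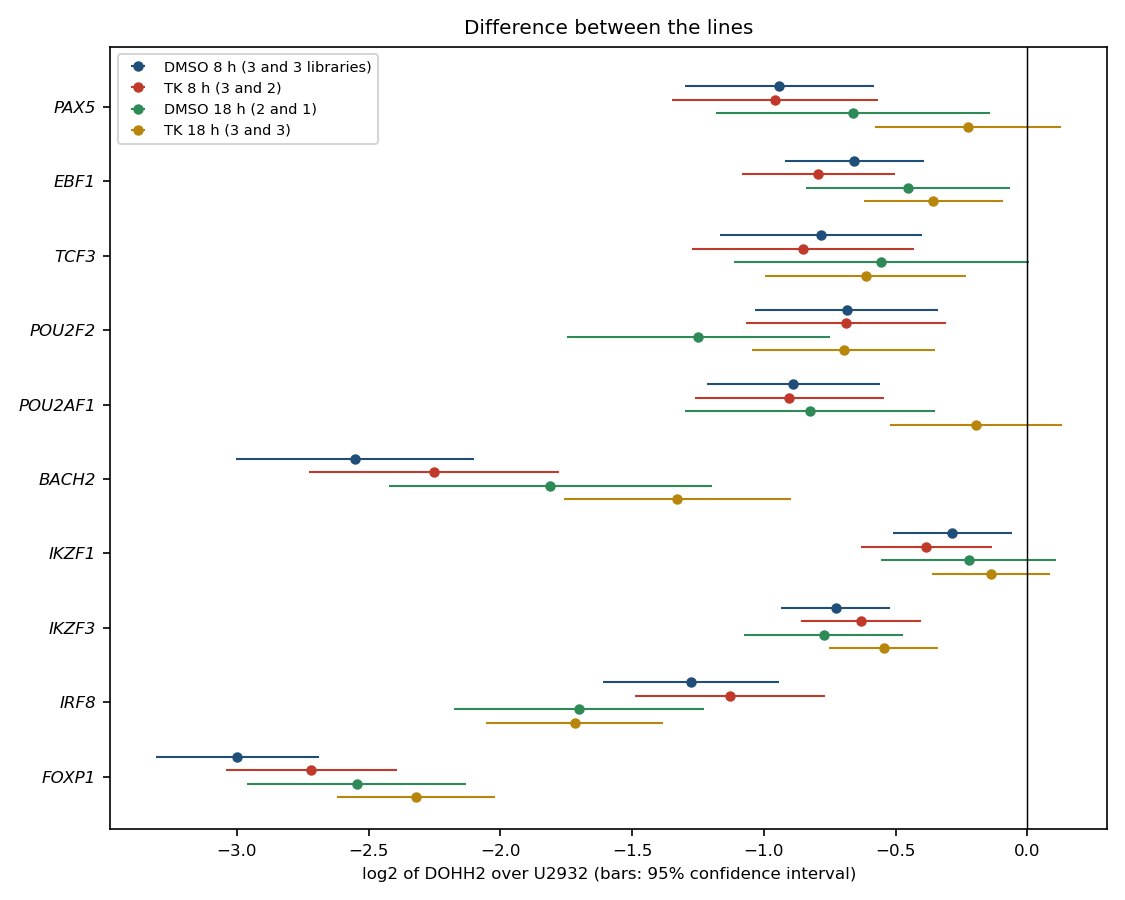
Log2 ratio of DOHH2 over U2932 for each transcription factor in the 4 combinations of treatment and time (points, with 95% confidence intervals from the fit across all genes as bars). All 40 points lie below 0, and the intervals of PAX5, POU2AF1 and IKZF1 with TK at 18 h and of TCF3 and IKZF1 in DMSO at 18 h include 0.

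With TK at 8 h all 10 members were again lower in DOHH2 (32.1% of all genes called lower, 62.8% in either direction), with log2 ratios from -2.72 for FOXP1 to -0.38 for IKZF1. Without U2932 TK 8 h replicate 2 the call for IKZF1 was lost (log2 -0.29). With TK at 18 h 7 members were lower (34.9% of all genes called lower, 69.2% in either direction). PAX5 (log2 -0.23, SE 0.17), POU2AF1 (log2 -0.20, SE 0.16) and IKZF1 (log2 -0.14, SE 0.11) did not pass. Without DOHH2 TK 18 h replicate 1, the library that stood apart, PAX5 had a log2 ratio of -0.47 and was called (adjusted p = 0.0108 in edgeR's quasi-likelihood F test, Benjamini-Hochberg adjusted), whereas POU2AF1, at -0.34, was not (adjusted p = 0.0667). TCF3, called either way, moved from -0.61 to -0.95 without that library. POU2AF1 was called when DOHH2 TK replicate 1 of both times was left out (log2 -0.34, adjusted p = 0.0389). The call for EBF1 (log2 -0.36) was lost without DOHH2 TK 18 h replicate 3 (log2 -0.31), without U2932 TK 18 h replicate 1 (log2 -0.29) and with no filter on low counts (log2 -0.37). In DMSO at 18 h, with 2 DOHH2 libraries against 1, 8 members were lower (26.9% of all genes called lower, 52.3% in either direction). TCF3 (log2 -0.56, SE 0.27) and IKZF1 (log2 -0.22, SE 0.16) were the exceptions. TCF3 was called with no filter on low counts (adjusted p = 0.00908) and when replicate 1 of DOHH2 TK was left out at both times (0.00462). With the compared groups only, the log2 ratios were -0.66 for TCF3 and -0.33 for IKZF1. Both were called there, but that fit takes its spread from the 2 DOHH2 libraries alone. In this contrast the lone U2932 library is assumed to vary like the other groups, and the call for PAX5 (log2 -0.66) was lost without DOHH2 DMSO 18 h replicate 1 (log2 -0.68) or replicate 3 (log2 -0.65), and that for EBF1 (log2 -0.45) without replicate 1 (log2 -0.35) or with no filter on low counts (log2 -0.52, adjusted p = 0.109).

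Over all treatments and times, the 11 DOHH2 libraries lay below all 9 U2932 libraries for 6 members: EBF1, POU2F2, BACH2, IKZF3, IRF8 and FOXP1. For 24.1% of all genes every DOHH2 library lay below every U2932 library, and for 46.8% the lines did not overlap in either direction. EBF1 ran from 15.5 to 24.5 CPM (median 20.7) in DOHH2 and from 26.8 to 34.7 CPM (median 30.7) in U2932. IKZF3 was the steadiest member, with its highest library 1.19-fold above its lowest in DOHH2 and 1.26-fold in U2932. BACH2 varied most in DOHH2, 3.21-fold from 6.28 to 20.2 CPM, and PAX5 most in U2932, 1.81-fold from 191 to 346 CPM. The lines overlapped for PAX5, TCF3, POU2AF1 and IKZF1. For PAX5 the DOHH2 libraries that reached the U2932 range were TK 18 h replicate 1 (259 CPM) and DMSO 8 h replicate 2 (209 CPM), the lowest U2932 library being at 191 CPM. For TCF3 it was DOHH2 TK 18 h replicate 1 alone, at 451 CPM against 225 to 336 CPM in the other 10. That library was also the highest of DOHH2 in POU2AF1 (394 CPM), IKZF3 (248 CPM) and FOXP1 (8.49 CPM), and DOHH2 TK 8 h replicate 1, which had the lowest share of mitochondrial counts (3.29%, against 5.06% to 8.08% in the other 19), was the lowest in PAX5, EBF1, POU2AF1 and IKZF1. The part of alignment and mitochondrial shares in these values was not tested.

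The study's own contrast sets TK against DMSO within a line and time. In edgeR's quasi-likelihood F test, Benjamini-Hochberg adjusted, 0 of the 10 members changed in any of the 4 such contrasts. Of all 16478 genes, 0% were called at 8 h in either line, and at 18 h 0.0728% were called in DOHH2 and 0.0182% in U2932. DESeq2 also called 0 members in each of the 4. At an unadjusted p under 0.05 there were 0 members in each line at 8 h and 2 in each line at 18 h. Of all genes, 497 (8 h) and 1411 (18 h) reached it in DOHH2, and 276 and 1227 in U2932. Over all members, the 95% confidence intervals of the log2 ratio lay within -0.94 (POU2AF1 in U2932) and 1.09 (BACH2 in DOHH2) at 18 h and within -0.52 and 0.83 at 8 h.

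**Figure D3:**
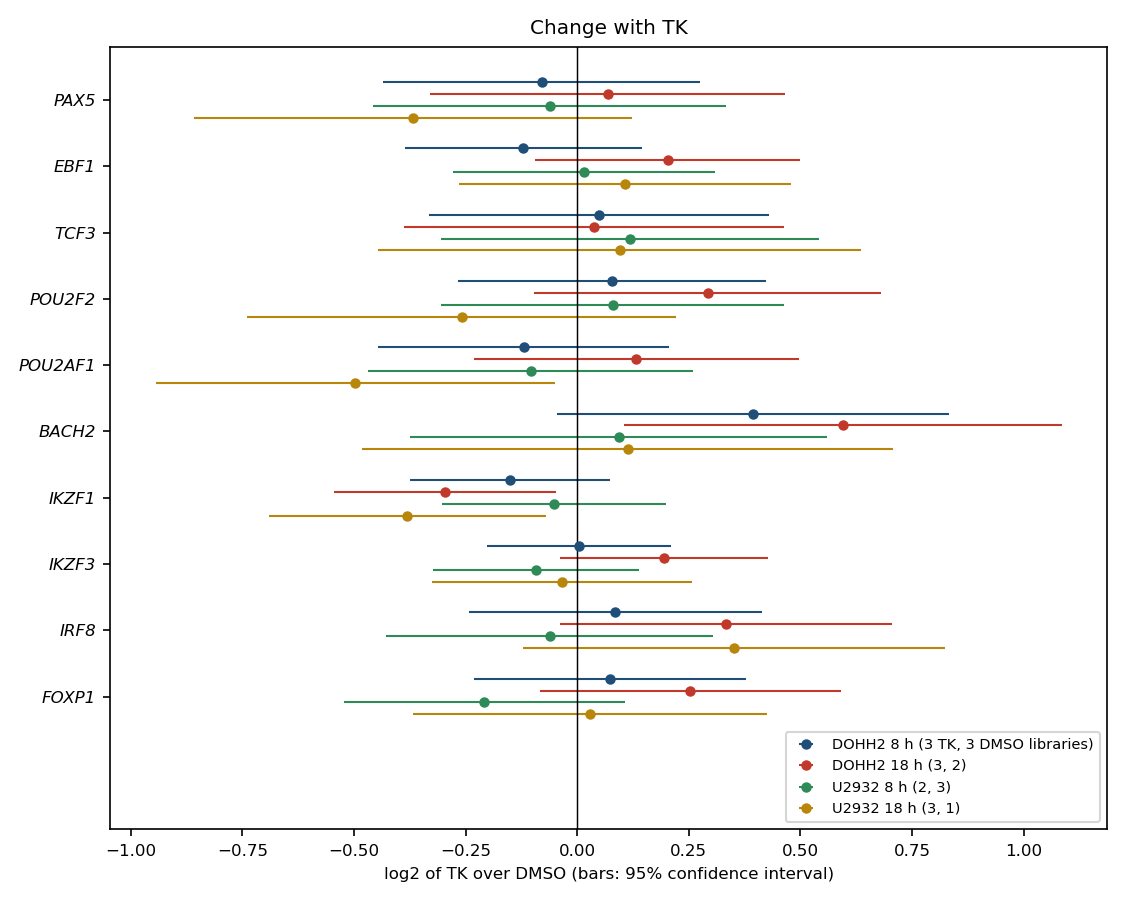
Log2 ratio of TK over DMSO for each transcription factor in each line and time (points, with 95% confidence intervals from the fit across all genes as bars). The intervals that leave out 0 are those of BACH2 and IKZF1 in DOHH2 at 18 h and of POU2AF1 and IKZF1 in U2932 at 18 h, all before adjustment over genes.

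PAX5 in DOHH2 at 18 h was at 259, 179 and 154 CPM with TK and 189.9 and 186 CPM in DMSO (log2 0.07, SE 0.19). The 3 TK libraries lay on both sides of the DMSO ones, and without DOHH2 TK 18 h replicate 1 the log2 ratio of PAX5 was -0.18. TCF3 was at 451, 262 and 239.6 CPM with TK and 325 and 294 CPM in DMSO (log2 0.04, SE 0.20). Leaving out the same library turned the sign of TCF3 as well, to -0.30, and that of POU2AF1 from 0.13 to -0.01, none of them called. EBF1 was at 22.0, 24.5 and 21.2 CPM with TK and 18.2 and 21.1 CPM in DMSO (log2 0.20, SE 0.14). In U2932 at 18 h PAX5 was at 254, 191 and 246 CPM with TK and 297 CPM in the 1 DMSO library (log2 -0.37, SE 0.24, adjusted p = 0.778 in edgeR's quasi-likelihood F test, Benjamini-Hochberg adjusted). EBF1 and TCF3 had log2 ratios of 0.11 and 0.10 there.

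Of the octamer pair, POU2AF1 in U2932 at 18 h was at 348, 414 and 379 CPM with TK and 537 CPM in the DMSO library. All 3 TK libraries were below it, as for 32.7% of all genes in that direction and 63.8% in either with a single control library (log2 -0.50, SE 0.21, adjusted p = 0.627 in edgeR's quasi-likelihood F test, Benjamini-Hochberg adjusted). When the DMSO libraries of both times served as the control, POU2AF1 was 380.3 ± 32.9 CPM (SD, n = 3) with TK at 18 h against 565 ± 42.6 CPM (SD, n = 4). It was then called lower (log2 -0.57, SE 0.14, adjusted p = 0.0206), with the 3 TK libraries below all 4 controls, in a contrast where 4.88% of all genes were called lower and 9.7% in either direction. That contrast mixes TK with time for 3 of its 4 controls. POU2AF1 was also called in a fit of the 4 libraries of the 18 h groups alone (log2 -0.52). That fit takes its spread from the 3 TK libraries alone. In the same contrast PAX5 was at 231 ± 34.2 CPM against 323 ± 18.9 CPM (log2 -0.49, SE 0.16, adjusted p = 0.0534) and did not pass, though its groups did not overlap, as for 13.6% of all genes in that direction. In DOHH2 at 18 h POU2AF1 was at 394, 300.0 and 303 CPM with TK and 287 and 318 CPM in DMSO. POU2F2 had log2 ratios of 0.29 (SE 0.19) in DOHH2 and -0.26 (SE 0.23) in U2932 at 18 h. The difference of the TK change between the lines at 18 h was 0.63 for POU2AF1 (SE 0.28, adjusted p = 0.77 in edgeR's quasi-likelihood F test, Benjamini-Hochberg adjusted), so a difference between the lines was not shown.

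BACH2 in DOHH2 was at 18.4, 20.2 and 14.9 CPM with TK at 18 h and 12.2 and 11.4 CPM in DMSO at 18 h. Its log2 ratio was 0.59 (SE 0.24, adjusted p = 0.486 in edgeR's quasi-likelihood F test, Benjamini-Hochberg adjusted). All 3 TK libraries lay above both controls, as for 11.9% of all genes in that direction and 25% in either. Against the DMSO libraries of both times, BACH2 was at 17.8 ± 2.66 CPM (SD, n = 3) and 10.3 ± 2.33 CPM (SD, n = 5), a log2 ratio of 0.80 (SE 0.19, adjusted p = 0.0899, where 0.267% of all genes were called). The 3 TK libraries again lay above all controls, as for 3.76% of all genes in that direction. EBF1 also did not overlap in that contrast (log2 0.18, SE 0.12). At 8 h the DOHH2 libraries had 7.84, 13.6 and 15.1 CPM of BACH2 with TK and 6.28, 11.0 and 10.4 CPM in DMSO (log2 0.39, SE 0.21). The groups at 8 h overlapped. In U2932 the log2 ratios of BACH2 were 0.09 (SE 0.22) at 8 h and 0.11 (SE 0.29) at 18 h. IRF8 had log2 ratios of 0.33 (SE 0.18) in DOHH2 and 0.35 (SE 0.23) in U2932 at 18 h, and FOXP1 of 0.25 (SE 0.16) and 0.03 (SE 0.19).

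IKZF1 in DOHH2 at 18 h was at 213, 207 and 188 CPM with TK and 247 and 252 CPM in DMSO (log2 -0.30, SE 0.12, adjusted p = 0.496 in edgeR's quasi-likelihood F test, Benjamini-Hochberg adjusted). In U2932 at 18 h it was at 222, 221 and 226 CPM with TK and 291 CPM in the DMSO library (log2 -0.38, SE 0.15, adjusted p = 0.578). In both lines the TK libraries lay below the 18 h DMSO libraries, as for 13.2% of all genes in DOHH2 and 32.7% in U2932. In U2932, with a single control library, 63.8% of all genes did not overlap in either direction. The 18 h DMSO libraries were also the highest in IKZF1 within each line, and against the DMSO libraries of both times its log2 ratios were -0.08 in DOHH2 and -0.15 in U2932. IKZF3 had log2 ratios of 0.19 (SE 0.11) and -0.03 (SE 0.14). In DOHH2 at 18 h the TK and DMSO libraries did not overlap for 6 members, 5 of them higher with TK (EBF1, POU2F2, BACH2, IKZF3 and IRF8) and IKZF1 lower. With 3 libraries against 2, 25% of all genes did not overlap, 11.9% being higher and 13.2% lower. The count at 8 h was 0 members in DOHH2, where 5.56% of all genes did not overlap. In U2932 at 8 h it was 1 member, FOXP1, at 38.9 and 44.7 CPM with TK and 51.4, 46.5 and 47.0 CPM in DMSO (log2 -0.21, SE 0.15), where 14% of all genes did not overlap and 7.24% were lower.

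The test of the difference itself gave 0 members called for the TK change in DOHH2 minus that in U2932, at 8 h (0% of all genes called) and at 18 h (0.0243%). It also gave 0 for the TK change at 18 h minus that at 8 h in DOHH2 (0.0121% of all genes) and in U2932 (0.00607%). Unadjusted p under 0.05 was reached by 1 member, POU2AF1 between the lines at 18 h (1017 of all genes), and DESeq2 called 0 members in these 4 contrasts.

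Time in culture was compared within each line and treatment, and 0 members were called between 18 h and 8 h in any of the 4 contrasts in edgeR's quasi-likelihood F test, Benjamini-Hochberg adjusted. Of all genes, 0.631% (DMSO) and 1.57% (TK) were called in DOHH2, and 0.0364% and 0.218% in U2932. Unadjusted p under 0.05 was reached by 3 and 5 members in DOHH2 and by 1 and 2 in U2932, and by 1786, 2972, 1873 and 3077 of all genes in that order. IRF8 came nearest: in DOHH2 in DMSO it was at 62.3 and 69.8 CPM at 18 h and 83.1, 133 and 107 CPM at 8 h (log2 -0.70, SE 0.18, adjusted p = 0.0944). Both 18 h libraries were below all 3 at 8 h, as for 15.8% of all genes, and DESeq2 called IRF8, its 1 call among the members in these 4 contrasts. Without DOHH2 DMSO 8 h replicate 1 edgeR's test called it too (log2 -0.86). With TK in DOHH2, IRF8 was at 95.4, 81.8 and 72.5 CPM at 18 h and 99.4, 138 and 104 CPM at 8 h (log2 -0.45, SE 0.16, adjusted p = 0.135). IKZF1 in DOHH2 in DMSO was at 247 and 252 CPM at 18 h and 207, 199 and 167 CPM at 8 h (log2 0.38, SE 0.12, adjusted p = 0.186), without overlap, as for 18.7% of all genes in that direction. In U2932 with TK, POU2AF1 was at 348, 414 and 379 CPM at 18 h and 499 and 569 CPM at 8 h (log2 -0.49, SE 0.17, adjusted p = 0.144). PAX5 was at 254, 191 and 246 CPM at 18 h and 290.3 and 346 CPM at 8 h (log2 -0.46, SE 0.19, adjusted p = 0.191). These contrasts share libraries with those of TK against DMSO and do not stand as separate evidence.

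Since the gap between the lines was narrower with TK at 18 h than in DMSO at 8 h for several members, the difference of those gaps was tested in a contrast added after the values were seen. It mixes TK and time, and the same libraries prompted it, so its adjusted p-values are descriptive only. BACH2 (1.22 on the log2 scale, SE 0.29, adjusted p = 0.0132), POU2AF1 (0.69, SE 0.22, adjusted p = 0.0448) and FOXP1 (0.68, SE 0.20, adjusted p = 0.0302) passed edgeR's quasi-likelihood F test, Benjamini-Hochberg adjusted, 3 of 10 members, where 5.7% of all genes were called in that direction and 12.4% in either. Mean BACH2 was 9.23 ± 2.57 CPM in DOHH2 in DMSO at 8 h and 17.8 ± 2.66 CPM with TK at 18 h, and 54.4 ± 4.97 and 44.9 ± 5.48 CPM in U2932 (SD, n = 3 each). Mean POU2AF1 was 310.0 ± 65.6 and 332 ± 53.5 CPM in DOHH2 and 574 ± 46.9 and 380.3 ± 32.9 CPM in U2932 (SD, n = 3 each). PAX5 (0.72, SE 0.24, adjusted p = 0.0550) did not pass. PAX5 was called by DESeq2 (adjusted p = 0.0326), with no filter on low counts (0.0113), with the filter at 50 counts (0.0475), and without DOHH2 DMSO 8 h replicate 2 (0.0324) or DOHH2 TK 18 h replicate 3 (0.0268). Without DOHH2 TK 18 h replicate 1 its value was 0.47, and that of TCF3 turned from 0.17 to -0.17, neither of them called. Leaving out DOHH2 DMSO 8 h replicate 1, U2932 DMSO 8 h replicate 1, U2932 DMSO 8 h replicate 2 or U2932 TK 18 h replicate 3 left BACH2 as the 1 call. POU2AF1 also lost its call without DOHH2 TK 18 h replicate 1, U2932 DMSO 8 h replicate 3, U2932 TK 18 h replicate 1 or 2, or with the compared groups only (adjusted p = 0.0516), and FOXP1 without DOHH2 DMSO 8 h replicate 3, DOHH2 TK 18 h replicate 2 or the filter on low counts (0.0729). A second added contrast, the change from 8 h to 18 h with TK in DOHH2 minus the same in U2932, called 0 members (6.69% of all genes), with 5 at an unadjusted p under 0.05 (4226 of 16478 genes), and DESeq2 called 3 (PAX5, POU2AF1 and BACH2) among 2192 genes called.

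Set beside their relatives per length, several members held a different share of their family in each line. TCF3 made up a median of 73.2% of the summed RPKM of the E proteins TCF3, TCF4 and TCF12 in DOHH2 and 73.7% in U2932, with overlapping ranges. The remainder differed: TCF4 ranged from 3.60% to 7.28% in DOHH2 and from 18.6% to 32.3% in U2932, and TCF12 held medians of 21.2% and 4.12%, without overlap between the lines. BACH2 held 39.5% of the sum of BACH1 and BACH2 in DOHH2 (range 26.0% to 52.7%) and 77.2% in U2932 (74.4% to 79.8%). FOXP1 held 1.48% of the FOXP sum in DOHH2 and 13.5% in U2932, and FOXP4 95.6% and 82.9%. IKZF3 held 45.3% of the Ikaros family in DOHH2 and 58.0% in U2932 (ranges 38.0% to 52.7% and 54.0% to 60.5%), whereas IKZF1 held 35.5% and 33.8% with overlapping ranges. IRF4, the related factor that drives plasma cell differentiation, was at a median of 136 RPKM in DOHH2 and 62.1 RPKM in U2932. The ratio of IRF4 to IRF8 in RPKM was 5.03 to 9.71 in DOHH2 (median 7.76) and 1.04 to 1.45 in U2932 (median 1.28). These shares are descriptions without a test, and most moves in them follow from the line differences already given. They also depend on the summed exon length by which each gene is divided. In U2932 the median of TCF4 was 689 CPM and that of TCF3 499.9 CPM before division by length. FOXP1 and FOXP4 had medians of 44.7 and 43.9 CPM there. For these pairs in U2932 the order thus rests on the annotated lengths. IRF4 lay above IRF8 before division by length as well, with medians of 805 and 95.4 CPM in DOHH2 and 366 and 269 CPM in U2932.

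**Figure D4:**
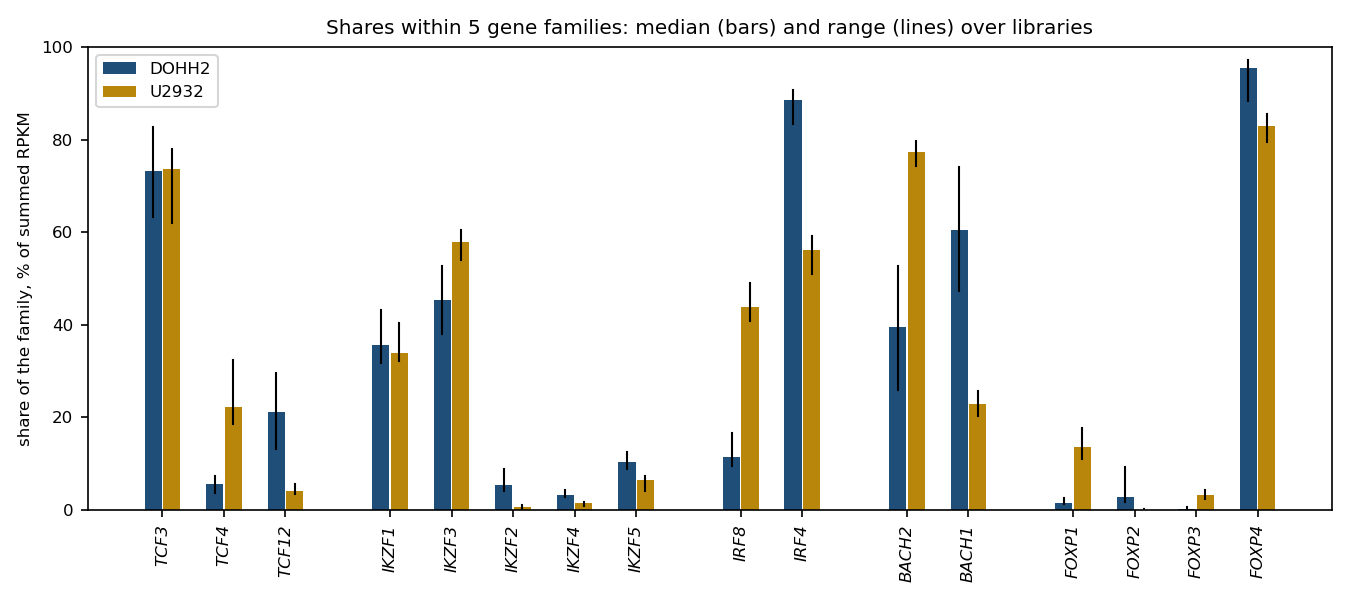
Share of the summed RPKM of 5 families held by each gene, as the median over the 11 DOHH2 (blue) and 9 U2932 (ochre) libraries (bars) with the lowest and highest library (black lines). TCF3 and IKZF1 hold a similar share in each line, while BACH2, IRF8 and FOXP1 hold a larger one in U2932. Shares of genes within a family depend on the annotated exon lengths.

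Genes of the same programme were followed by fixed lists in DMSO at 8 h. Of 23 tested B lineage target genes (25 listed), 8 were higher and 9 lower in DOHH2 in edgeR's quasi-likelihood F test, Benjamini-Hochberg adjusted, with a median log2 ratio of -0.09 beside -0.84 for the members. Of all genes 33% were higher and 34.9% lower in this contrast, so the shares of this list lie near the background, and the counts of the lists that follow are to be read against the same shares. Mean CXCR5, a chemokine receptor, was 0.162 CPM in DOHH2 against 87.0 CPM in U2932, the adaptor BANK1 0.0223 against 13.3 CPM and the recombinase gene RAG1 0.0148 against 0.503 CPM. MS4A1, the gene of CD20, picked once the values were known, had 93.4 ± 22.3 against 1279 ± 205 CPM (SD, n = 3 each). Of 31 partner transcription factors, 12 were higher and 14 lower. Among them, mean BCL6 was 0.106 CPM in DOHH2 against 400.4 CPM in U2932, ID1, an inhibitor of E proteins, 0.156 against 53.9 CPM, and LMO2 0.327 against 17.2 CPM. Of 14 plasma cell genes, 10 were higher and 2 lower, with a median log2 ratio of 1.03. SDC1, the gene of the plasma cell marker CD138, had 487 ± 17.7 against 1.70 ± 0.169 CPM, and PRDM1, which encodes the plasma cell regulator BLIMP1, 81.1 ± 12.6 against 7.26 ± 0.308 CPM (SD, n = 3 each). SEL1L3 was lower, with 32.0 against 320.4 CPM. Of 20 tested relatives of the members (30 listed), 11 were higher and 5 lower, among them FOXP2 with 4.61 against 0.0289 CPM, PAX6 with 0.0561 against 1.18 CPM, and PAX8 with 0 counts in all 3 DOHH2 libraries and 2.98 CPM in U2932. In the 4 contrasts of TK against DMSO, 0 genes of any of these lists were called in edgeR's test. The B lineage targets at an unadjusted p under 0.05 were 1 (8 h) and 6 (18 h) in DOHH2 and 0 at both times in U2932, the partner factors 1 and 1, then 0 and 1, the plasma cell genes 0 and 2, then 0 and 1, and the relatives 0 and 1, then 1 and 1. Of all 16478 genes, 497 and 1411 reached it in DOHH2, and 276 and 1227 in U2932. The median log2 ratio of TK over DMSO for the B lineage targets was 0.14 (8 h) and 0.18 (18 h) in DOHH2, and 0.06 and 0.11 in U2932. For all genes tested it was 0.009 and 0.016 in DOHH2, and 0 and -0.002 in U2932. The genes with the smallest p in DOHH2 at 18 h were ID1 among the partner factors (log2 0.99, adjusted p = 0.581), DERL3 among the plasma cell genes (-0.54, 0.329) and, among the relatives, FOXP3, which had few counts there (adjusted p = 0.264). In U2932 at 18 h they were, with the B lineage targets first, CIITA, the activator of MHC class II genes (-0.50, adjusted p = 0.7), MYB (-0.58, 0.577), DERL3 (-0.49, 0.627) and IRF9 (-0.66, 0.578). At 8 h, with every adjusted p at 1, they were IGLL1 (0.77), ID1 (1.43), SLAMF7 (-0.14) and IRF3 (0.24) in DOHH2 and CBFB (-0.30), SDC1 (0.37) and IRF7 (0.57) in U2932. ID1 was at 0.111 to 0.716 CPM in the DOHH2 libraries, so its ratios in that line rest on few counts.

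The genes whose levels followed each member most closely were found from log2 CPM after subtracting the mean of each line, over the 20 libraries and 10087 other genes. The 3 nearest to PAX5 were SEC24C (Pearson r 0.96), SOGA1 (0.95) and PRRC2B (0.95), to EBF1 WDR26 (0.85), ERN1 (0.85) and CDK13 (0.84), and to TCF3 NACC1 (0.93), WIPI2 (0.92) and ARHGEF2 (0.91). POU2F2 was followed by KLHDC4, CSRNP1 and CHPF2 (0.88 each), and POU2AF1 by IL17RA (0.92), CRY2 (0.90) and LARP1 (0.90). Among the nearest to BACH2 were PRKX (0.85) and GAB1 (0.84), to IRF8 GALNS (0.95), C8orf33 (0.95) and the B cell factor SPIB (0.93), and to FOXP1 TES (0.84), GCLC (0.79) and PCDH9 (0.78). IKZF1 was followed by ATP8B2 (0.84), MTMR4 (0.84) and TPGS2 (0.83), and IKZF3, with the weakest likeness of the 10, by TACC1 (0.74), CYLD (0.73) and RIT1 (0.71). Among the 45 pairs of members r ran from -0.62 to 0.77 with a median of 0.22, and the closest pairs were BACH2 with FOXP1 (0.77), POU2F2 with IRF8 (0.75) and EBF1 with BACH2 (0.73). All points share the same libraries, including the 2 that stood apart in alignment or mitochondrial share, and the correlations are descriptions.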

How the data were processed

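Counts per gene for 20 libraries were deposited by the authors as whole numbers, without normalisation. STAR, HTSeq, edgeR and the build GRCh38.p10 are named, without versions, per the submitters' processing notes. The strand setting of the counting is not given in the sources used here. The 5 HTSeq summary counts, 32.7% to 62.7% of all counts, were left out.

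A gene entered the tests where 3 or more libraries reached 0.288 CPM (10 counts in the median library). Counts were TMM-scaled and fitted in 1 model with a coefficient for each of the 8 groups by edgeR 4.0.16 (R 4.3.3, limma 3.58.1), quasi-likelihood F test, Benjamini-Hochberg adjustment over 16478 genes and a threshold of 0.05. The script was tested on simulated data. DESeq2 1.42.0, other scalings and filters, a replicate block, subsets of libraries and DMSO of both times as the control were alternatives, along with leaving out each library. RPKM used exon lengths of GENCODE v29, and promoters came from RefSeq (GRCh38.p14).

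All 10 members are named. Of each list, up to 3 called genes with the largest absolute log2 ratio per contrast described are named, or else the gene with the smallest p, and for each member the 3 genes with the highest Pearson r among those with a mean of at least 5 CPM (log2 CPM, prior count 2). Some genes this rule names are not reported here. For any other gene the text says that it was picked once its values were known. Members and lists were chosen with earlier results of these data known. Replicates were compared: over 17 pairs of libraries of 1 group, chi-square per degree of freedom was 11.6 to 147, so none was counted as a repeat of another.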

Additional observations from a re-analysis of the deposited data

Results flagged for a closer look

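The planned tests of a difference in the TK change between the lines called 0 members. Members passed in 1 contrast added after the values were seen: DOHH2 minus U2932 with TK at 18 h, minus the same in DMSO at 8 h. The same libraries prompted that contrast, so its adjusted p-values are descriptive only. On the log2 scale the difference was 1.22 for BACH2 (adjusted p = 0.0132), 0.69 for POU2AF1 (adjusted p = 0.0448) and 0.68 for FOXP1 (adjusted p = 0.0302) in edgeR's quasi-likelihood F test, Benjamini-Hochberg adjusted. Over the alternatives tried, the adjusted p ranged from 2.30e-05 to 0.0437 for BACH2, from 0.0119 to 0.0987 for POU2AF1 and from 0.00749 to 0.0859 for FOXP1. TK and time cannot be told apart in it. No group holds 4 or more libraries, so single libraries were not tested as outliers within groups.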

How the results depend on the processing

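For TK against DMSO, counts of called members stayed at 0 under the alternatives run, except in U2932 at 18 h, where 1 member (POU2AF1) was called with only the compared groups (167 of 14618 genes) and 1 with DMSO of both times as the control (1599 of 16478). For 18 h against 8 h in DMSO in DOHH2, 1 member (IRF8) was called with no filter on low counts (445 of 34160 genes), 1 by DESeq2 (280 of 16478) and 1 when replicate 1 of DOHH2 TK was left out at both times (304 of 16497), and leaving out 1 library gave 0 to 1. With TK in DOHH2, no filter gave 2 (BACH2 and IRF8; 861 of 34160 genes). With TK in U2932, 2 (PAX5 and POU2AF1) were called with 1 line only (1470 of 15218 genes), 1 with the compared groups only (1374 of 14632) and 2 when replicate 1 of DOHH2 TK was left out at both times (1647 of 16497), where 36 of 16478 genes were called with all libraries. For the added change from 8 h to 18 h with TK between the lines, no filter gave 3 (1769 of 34160 genes), DESeq2 3 (2192 of 16478), and leaving out 1 library 0 to 1. For the added line gap with TK at 18 h against DMSO at 8 h, leaving out 1 library gave 1 to 4. The cause was not tested. In the line contrasts 14 of 470 member values lost their call and 7 gained one, and 0 changed sign. In the TK contrasts 43 of 530 values changed sign, none of them called in either fit, and of all 2560 values 151 did so; 0 called values changed sign. Over all genes DESeq2 called 90 in DOHH2 and 60 in U2932 for TK at 18 h, where edgeR called 12 and 3.

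Replicate numbers were not treated as pairing: over 22 pairs of libraries with the same number in different groups of a line, deviations correlated from -0.16 to 0.59 (median 0.12), 11 of them above 0.1, and over 44 pairs with different numbers from -0.52 to 0.50 (median -0.02), 10 of them above 0.1. The median was higher for same-numbered libraries, but not every pair was above 0.1, and the labels name no shared batch. In groups of 2 libraries the deviations mirror each other. DOHH2 DMSO 8 h replicate 1, for instance, had 0.37 with DMSO 18 h replicate 1 and -0.37 with replicate 3. The same-numbered and other pairs are thus partly tied by construction. With the replicate block, 0 members were called in each contrast of TK or of time, 10, 10 and 7 in the line contrasts in DMSO at 8 h, with TK at 8 h and with TK at 18 h, and 6 in place of 8 in DMSO at 18 h (PAX5 and EBF1 lost).

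The 1 U2932 DMSO library at 18 h limits the contrasts that use it.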
